A study of Mus musculus with 4 samples.

Results

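Contacts of the chromatin domains around Pou5f1, Klf4, Esrrb and Prdm14, 4 genes of the pluripotency network, were examined before and after differentiation, in embryonic stem cells (ESCs) and motor neurons (MNs) of the mouse. The genes were proposed with earlier results of these data known, and their domains were taken as all listed pairs of 8 kb bins with both bins inside a fixed window around each gene on the mouse assembly GRCm38. The windows were chr17:35300001-35700000 for Pou5f1, chr4:55200001-55800000 for Klf4, chr12:86200001-86800000 for Esrrb and chr1:12900001-13300000 for Prdm14. They held 6266 of the 23095428 listed pairs of bins in ESCs and 5379 of 21005697 in MNs. Contacts were measured by Micro-C, in which fixed chromatin is digested to nucleosomes by micrococcal nuclease and neighbouring ends are joined before sequencing, so that each joined read pair reports a contact.

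All libraries came from E14 cells, a mouse ESC line (ES-E14TG2a). WT ESCs and PATZ1 KO ESCs were grown with LIF and 2i, the inhibitors of MEK1/2 and GSK3. WT MNs and PATZ1 KO MNs were obtained from these through embryoid bodies patterned with all-trans retinoic acid and a smoothened agonist. The titles say only MNs, and the study describes a protocol for cervical MNs and another for more caudal ones. The day of collection is not given in the sources used here. PATZ1, a transcription factor with zinc fingers that the study examined for a part in insulation, was removed with a guide RNA and Cas9, and the clone used for Micro-C is not given in the sources used here. Each of the 4 groups was 1 library from 1 pool of cells. No group therefore has a replicate check, and no test was made. The 95% intervals cover counting error only. They take the sums as full counts, although pairs seen in 1 library alone were left out of the lists. The lists number their columns 1 and 2 without naming them, and every statement on PATZ1 KO against WT rests on reading 1 as WT, since the comparison is named WT first. Within each cell state, the library with more contacts under this reading is the one with fewer reads in the study's supplement, so the sign of every such ratio, and which library is called WT, is uncertain. Micro-C measures no RNA, so markers of ESCs and MNs could not be checked. Contacts over the listed pairs ranged from 110991835 in WT MNs to 170946673 in WT ESCs.

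Pou5f1 encodes OCT4, which with SOX2 holds ESCs in the pluripotent state. Klf4 and Esrrb encode a Kruppel-like factor and an orphan nuclear receptor that maintain naive pluripotency, and Prdm14 encodes a PR domain protein of ESCs and primordial germ cells. Such genes are driven in ESCs by enhancers, some of them far from the start site, and cohesin, halted at CTCF sites, folds the intervening chromatin into domains in which enhancer and promoter meet more often. The network is shut down as cells differentiate. The proximal and distal enhancers of Pou5f1 lie just upstream of its start site, too near to be resolved in bins of 8 kb. Klf4 is known to be served in ESCs by enhancers downstream of the gene, and Prdm14 by a distant super-enhancer.

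The start sites are shown first, since every promoter value below starts from the bin that holds them. Pou5f1 lies on the plus strand at chr17:35506018-35510772, and its promoter bin was 35504001 to 35512000. Klf4 lies on the minus strand at chr4:55527143-55532466, with its promoter bin at 55528001 to 55536000. Esrrb lies on the plus strand at chr12:86361117-86521628. Its first start site falls in the bin 86360001 to 86368000, and protein-coding start sites also fall in the bins starting at 86416001 and 86464001. Prdm14 lies on the minus strand at chr1:13113457-13127163, with its promoter bin at 13120001 to 13128000. The windows held 18, 2, 5 and 3 protein-coding genes respectively. The 250 bases before the RefSeq start site (GRCm38.p6), 5′ to 3′ on the strand of the gene, were found for 3 of the 4 members. Capitals mark the G-rich run GGGAGGGG or its reverse complement, a sequence of the kind that PATZ1 and MAZ bind.
Pou5f1, chr17:35505782-35506031, plus strand: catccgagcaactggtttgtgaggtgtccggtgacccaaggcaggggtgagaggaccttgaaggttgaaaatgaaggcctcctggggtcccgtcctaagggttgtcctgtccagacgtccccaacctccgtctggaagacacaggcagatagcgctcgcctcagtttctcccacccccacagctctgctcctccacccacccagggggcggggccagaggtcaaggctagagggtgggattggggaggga
Klf4, chr4:55532476-55532725, minus strand: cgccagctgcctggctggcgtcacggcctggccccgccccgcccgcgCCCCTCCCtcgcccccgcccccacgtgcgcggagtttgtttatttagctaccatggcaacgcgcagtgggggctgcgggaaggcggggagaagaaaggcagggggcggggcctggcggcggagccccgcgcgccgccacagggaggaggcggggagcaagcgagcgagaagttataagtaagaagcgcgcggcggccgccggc
Esrrb, chr12:86360867-86361116, plus strand: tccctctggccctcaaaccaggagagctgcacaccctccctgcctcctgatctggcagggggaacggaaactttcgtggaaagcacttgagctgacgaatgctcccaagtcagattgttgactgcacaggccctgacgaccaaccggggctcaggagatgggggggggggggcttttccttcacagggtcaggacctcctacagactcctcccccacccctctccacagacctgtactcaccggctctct
Of these, Klf4 held 1 match and Pou5f1 and Esrrb none. The run stood in 10.9% of 32851 promoters of the same length. No match to the core of the CTCF site or to the joined octamer and Sox site was present in the 3 sequences, which 0.508% and 0.00304% of all promoters held.

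The first question was how much the promoters touch the surrounding chromatin, and whether this differs between ESCs and MNs. Contacts between the promoter bin and all bins 24 to 160 kb away on both sides were divided by the number expected at that distance, taken as the chromosome's mean in the same library. A value of 1 is therefore the chromosome's mean. Over 20893 protein-coding promoters the median was 0.944 in WT and 0.893 in PATZ1 KO ESCs, and 1.03 in WT and 0.912 in PATZ1 KO MNs. In WT ESCs the order was Prdm14, Esrrb, Klf4 and Pou5f1, and in WT MNs it was Esrrb, Prdm14, Pou5f1 and Klf4. Esrrb and Klf4 in WT ESCs differed by less than their intervals, and with the coverage of the bins in the expected number Pou5f1 came first in all 4 libraries.

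Klf4 showed the largest difference between the cell states among the 4 before the correction for coverage given below. Its promoter had 215 contacts in WT ESCs, 1.00 of the expected number (0.875 to 1.15), and 171 in PATZ1 KO ESCs, 0.903 (0.773 to 1.05). In WT MNs it had 83, or 0.582 (0.463 to 0.721), and in PATZ1 KO MNs 83, or 0.592 (0.472 to 0.734). Both MN libraries thus lay below both ESC libraries, with no overlap of the intervals. The log2 ratio of WT MNs over WT ESCs was -0.79 (-1.17 to -0.42), against a median of 0.12 over all promoters. Klf4 was the only member past 1.5-fold in this comparison, 1 of 4 and in the lower direction. Over all promoters, 5.43% were lower by that fold and 7.50% higher. With the expected number taken over listed pairs only, the ratio was -0.56, short of 1.5-fold. Between the PATZ1 KO libraries the log2 ratio of MNs over ESCs was -0.61, with an interval that ended at -0.22, against a median of 0.015. There too Klf4 alone was past 1.5-fold, 1 of 4, beside 3.46% of promoters lower and 2.91% higher.

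Prdm14 had the highest promoter contact in ESCs before any correction for coverage. The value was 1.24 (289 contacts, 1.10 to 1.39) in WT ESCs and 1.15 (244 contacts, 1.01 to 1.30) in PATZ1 KO ESCs. In MNs it was 0.999 (143 contacts, 0.842 to 1.18) in WT and 0.963 (143 contacts, 0.812 to 1.13) in PATZ1 KO. The MN libraries lay below the ESC libraries, but their intervals overlapped. The log2 ratio of MNs over ESCs was -0.31 (-0.61 to -0.015) in WT and -0.26 (-0.56 to 0.047) in PATZ1 KO.

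Esrrb and Pou5f1 went the other way in WT. Esrrb stood at 1.02 (226 contacts, 0.892 to 1.16) in WT ESCs and 1.01 (198 contacts, 0.875 to 1.16) in PATZ1 KO ESCs. In WT MNs it reached 1.43 (204 contacts, 1.24 to 1.65), while PATZ1 KO MNs, at 1.11 (160 contacts, 0.941 to 1.29), lay within the intervals of the ESC libraries. The log2 ratio of MNs over ESCs was 0.49 (0.21 to 0.77) in WT and 0.13 (-0.18 to 0.44) in PATZ1 KO. The start sites of Esrrb in the bins starting at 86416001 and 86464001 gave 0.40 (0.12 to 0.68) and 0.28 (-0.003 to 0.57) in WT. In PATZ1 KO they gave -0.16 (-0.47 to 0.15) and -0.02 (-0.35 to 0.31). Pou5f1 was below 1 in every library: 0.518 (106 contacts, 0.424 to 0.627) in WT ESCs, 0.537 (97 contacts, 0.436 to 0.655) in PATZ1 KO ESCs, 0.754 (98 contacts, 0.612 to 0.919) in WT MNs and, lastly, 0.605 (76 contacts, 0.477 to 0.757) in PATZ1 KO MNs. The intervals of WT ESCs and WT MNs overlapped slightly, and the log2 ratio was 0.54 (0.13 to 0.95). Between the PATZ1 KO libraries it was 0.17 (-0.28 to 0.62).

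Coverage of a bin means all its contacts relative to the mean bin of its chromosome. Between WT ESCs and WT MNs it moved with the values of Pou5f1, Klf4 and Esrrb but not with those of Prdm14. Between the PATZ1 KO libraries the Esrrb promoter bin had lower coverage in MNs, while its value was higher. The Klf4 promoter bin stood at 0.990 in WT and 0.991 in PATZ1 KO ESCs, against 0.881 and 0.828 in MNs. The Esrrb promoter bin stood at 1.04 in WT and 1.11 in PATZ1 KO ESCs, and 1.21 in WT and 0.965 in PATZ1 KO MNs. With the coverage of both bins in the expected number, the log2 ratio of WT MNs over WT ESCs was 0.086 for Esrrb and 0.044 for Pou5f1, both close to 0. In the PATZ1 KO libraries, however, the corrected Esrrb values were 0.854 in ESCs and 1.24 in MNs, the largest difference of the 4 there. The Klf4 values then were 0.970 in WT ESCs and 0.630 in WT MNs, and 0.844 and 0.759 in the PATZ1 KO libraries. Over both sides together, little of the difference between cell states was thus left in PATZ1 KO. The sides went opposite ways there, as given below. The Prdm14 bin stood at 1.04 in both WT ESCs and WT MNs, and its log2 ratio went from -0.31 to -0.43 with coverage included. It was -0.11 with 1 bin on either side of the promoter bin included, and -0.24 (-0.57 to 0.088) with the ESC libraries thinned to the MN totals. The window of Pou5f1 was covered poorly throughout. The median bin stood at 0.577 to 0.674 of the chromosome's mean, 17 or 18 of 49 bins were under 0.5, and 3 bins, to the left of the gene among the H2-Q genes of the major histocompatibility complex, had no listed contact at all. With coverage included, its promoter values rose to between 1.75 and 2.04. The level of Pou5f1 was thus below or above the expected number depending on the correction.

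**Figure D1:**
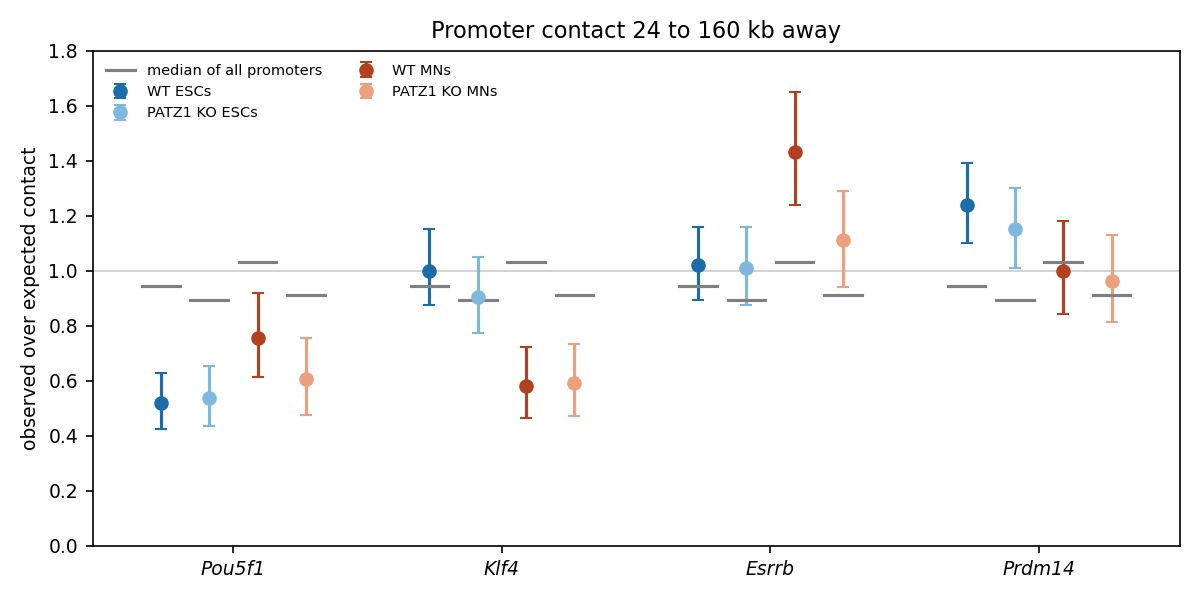
Observed over expected contact of each promoter bin with the bins 24 to 160 kb away (vertical axis, linear), for 4 genes and 4 libraries; points are single libraries, bars their 95% counting intervals, and grey lines the median of all promoters in that library. Klf4 stood at 1.00 in WT ESCs against 0.582 in WT MNs, and Esrrb stood at 1.43 in WT MNs against 1.02 in WT ESCs.

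The contacts were then resolved by side and by distance, with left meaning lower and right meaning higher coordinates. For Klf4 on the minus strand, left is downstream. The difference between the cell states lay on this side. Contacts to the left numbered 129 in WT and 87 in PATZ1 KO ESCs, against 29 in WT and 28 in PATZ1 KO MNs. The log2 ratio of MNs over ESCs was -1.57 (-2.20 to -0.98) in WT and -1.20 (-1.87 to -0.57) in PATZ1 KO. To the right it was -0.087 (-0.61 to 0.42) and -0.18 (-0.69 to 0.33). With coverage included, the left values were 1.25 in WT ESCs and 0.464 in WT MNs, and 0.955 and 0.532 in PATZ1 KO. On the right they were 0.725 and 0.780, and 0.754 and 0.968, higher in MNs. Unlisted pairs counted as 0, and 73.0% of the window's possible pairs were listed in ESCs against 56.9% in MNs. This can lower sparse MN values, and its part by side was not tested. In blocks of 40 kb, named here by the distances of their first and last bin, the WT ratio was below 0 with its whole interval in 4 of 12 blocks, which were the 4 nearest blocks on the left. In PATZ1 KO this held in 3 of 12. The block 64 to 96 kb to the left was not among these, at -1.45 (-3.50 to 0.20). No share of such blocks over all promoters is set beside these counts or the block counts below. They are therefore a description only. The block 64 to 96 kb to the left held 40 (WT) and 15 (PATZ1 KO) contacts in ESCs, and 5 and 4 in MNs, or 1.51, 0.638, 0.286 and 0.234 of the expected number.

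Within the block nearest to the gene, the bin 55472001 to 55480000, which starts 56 kb to the left of the promoter bin, had the highest value of the 3 bins with at least 20 contacts over both ESC libraries. Partner bins named from ESCs were chosen for their values there, which by itself favours lower values in MNs, so their MN values are a description. It held 15 contacts in WT ESCs, 2.15 of the expected number (1.21 to 3.55), and 10 in PATZ1 KO ESCs, 1.63 (0.783 to 3.00). In MNs the pair was not listed, which means that at least 1 of the MN libraries had no contact there, where 4.75 were expected in WT and 4.67 in PATZ1 KO. The bin overlaps no annotated gene and held no match to any of the 3 motifs. The other bins with at least 20 contacts lay 24 kb to either side, that on the left in the gene model Gm12507, and ranged from 0.549 to 1.09 over the 4 libraries. No bin of the Klf4 window reached 20 contacts with the promoter in MNs.

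Prdm14 also favoured its left side, again downstream. The left value was 1.77 in WT and 1.76 in PATZ1 KO ESCs and 1.36 in both MN libraries, whereas the right value lay between 0.538 and 0.702. Contacts were concentrated 64 to 96 kb away. There the promoter had 70 contacts in WT ESCs, 2.43 of the expected number (1.89 to 3.07), and 76 in PATZ1 KO ESCs, 2.89 (2.28 to 3.62). In WT MNs it had 26, or 1.49 (0.976 to 2.19), and in PATZ1 KO MNs 30, or 1.67 (1.12 to 2.38). Both MN values lay below both ESC values, and the log2 ratio of MNs over ESCs was -0.70 (-1.41 to -0.033) in WT and -0.79 (-1.46 to -0.17) in PATZ1 KO. The block was named for its value in ESCs, which by itself favours lower values in MNs. Whole intervals lay below 0 in 1 of 8 blocks in WT and 2 of 8 in PATZ1 KO, again without a share over all promoters.

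The 3 strongest partner bins of Prdm14 in ESCs lay side by side, from 13040001 to 13064000. The bin 64 kb to the left, which holds the gene models Gm37162 and Gm5250, had 19 (WT) and 21 (PATZ1 KO) contacts in ESCs, and 6 and 8 in MNs. These were 2.81, 3.43, 1.43 and 1.84 of the expected numbers. The bin 80 kb to the left had 18, 16, 8 and 6 contacts, and the bin 72 kb to the left 15, 16, 5 and 8. Of 10 bins with at least 20 contacts over both ESC libraries, 9 lay above the expected number. The minimum itself favours this. At 64 kb 6.76 contacts were expected in WT and 6.12 in PATZ1 KO ESCs, so a bin that reached 20 there had to lie above. The count is therefore a description only.

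By value, the strongest contacts of the Prdm14 window fell on the bins just beyond the promoter bin. The start site, at 13127163, lies close to the end of its bin at 13128000. Bins of 8 kb therefore cannot place these contacts off the promoter. The pair with the highest mean in both cell states joined the bin 13048001 to 13056000 to the bin 13136001 to 13144000 in Ncoa2, 88 kb away, and was chosen for that value. It had 24 (WT) and 24 (PATZ1 KO) contacts in ESCs, and 9 and 16 in MNs, or 4.55, 4.97, 2.88 and 4.95 of the expected numbers. The next pair in both states joined the same left bin to the bin 13128001 to 13136000, 80 kb away. It had 29 contacts in WT ESCs, 5.14 of the expected number (3.44 to 7.38), and 22 in PATZ1 KO ESCs, 4.25 (2.66 to 6.43). In WT MNs it had 11, or 3.22 (1.61 to 5.76), and in PATZ1 KO MNs 14, or 3.98 (2.17 to 6.67). Both pairs were thus above the expected number in all 4 libraries, and for both the intervals of ESCs and MNs overlapped.

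The left bin of these pairs held the only match to the core of the CTCF site found in the promoter, partner and strongest-pair bins of Prdm14. On GRCm38, CTCF cores stood in 3.75% of 68975 bins of 8 kb on the 4 chromosomes. The match is shown because it lies at the left foot of both pairs, with the core in capitals and 25 bases on either side.
Prdm14, 72 kb to the left, chr1:13050295-13050356, plus strand: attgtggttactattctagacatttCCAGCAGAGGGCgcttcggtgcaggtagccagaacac
By the usual convention a core on the plus strand points to the right, here toward Prdm14. A match describes letters only and does not show that CTCF was bound.

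**Figure D2:**
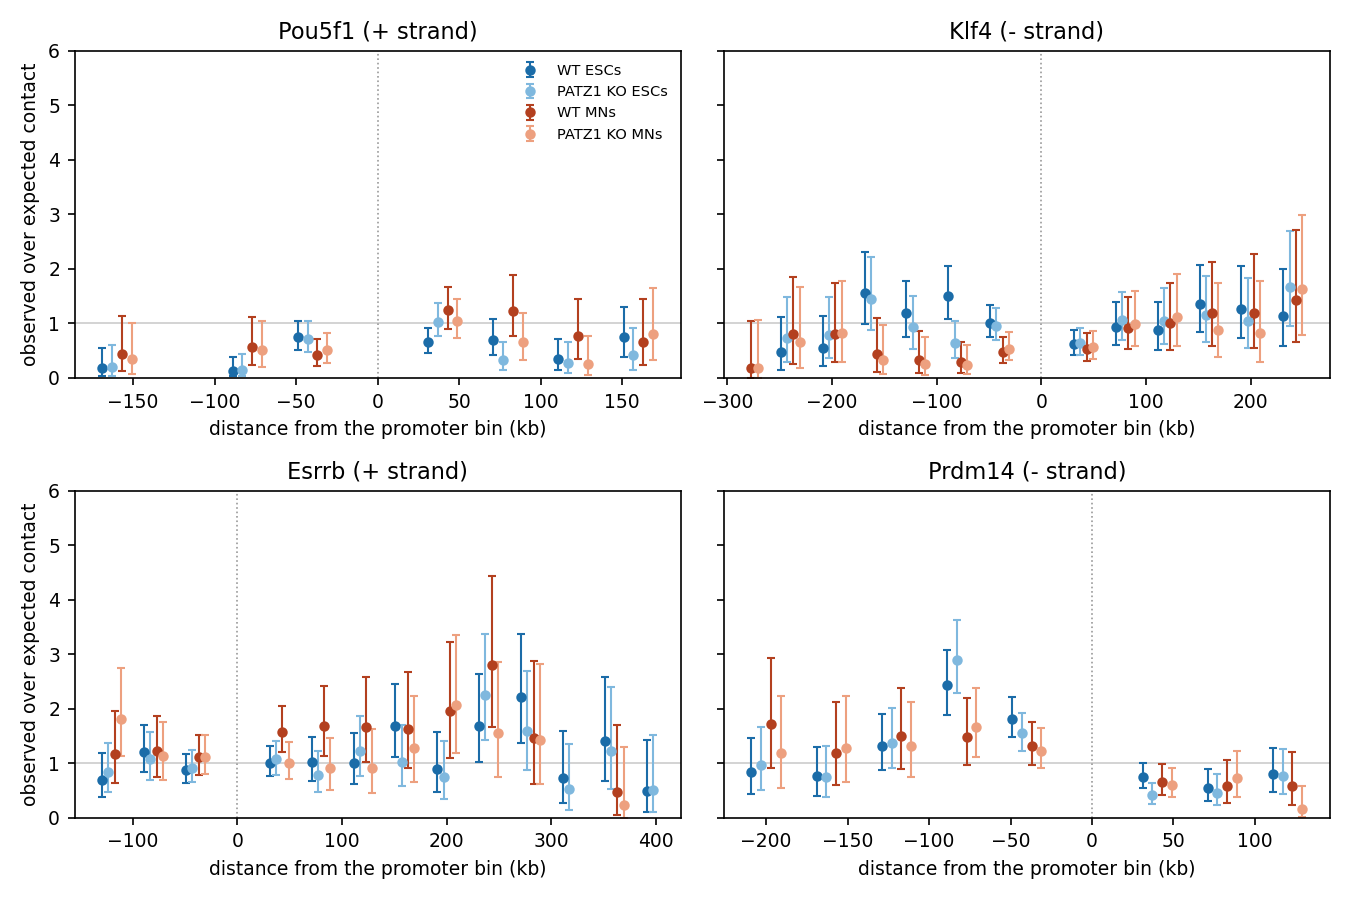
Observed over expected contact of the promoter bin with blocks of 40 kb (vertical axis, linear) by distance from the promoter bin in kb, negative to the left; points are single libraries, set slightly apart, bars their 95% counting intervals, and blocks with no listed pair are left out. The ESC points of Klf4 lay above its MN points 24 to 176 kb to the left, and those of Prdm14 peaked 64 to 96 kb to the left at 2.43 and 2.89.

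Esrrb showed a different layout. Among 7 bins with at least 20 contacts over both ESC libraries, the highest mean was 1.32, below the 3 leading bins of Prdm14. With at least 10 contacts required, bins farther away entered and the highest mean was 2.57 in ESCs and 5.84 in MNs. With at least 20 contacts, the highest in MNs was the bin 24 kb to the right, inside the gene, with 22 contacts in WT MNs, 1.98 of the expected number (1.24 to 3.00), and 12 in PATZ1 KO MNs, 1.07 (0.551 to 1.86). In ESCs that bin had 9 and 18 contacts, or 0.548 and 1.26. The libraries showed no order by cell state or genotype there.

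Beyond the gene, contact of the first promoter bin was raised in a stretch around 248 kb to the right, whose highest block differed between the libraries. In the block 224 to 256 kb from the promoter bin, 19 contacts were found in WT and 23 in PATZ1 KO ESCs, and 18 in WT and 10 in PATZ1 KO MNs. These were 1.69 (1.02 to 2.64), 2.25 (1.42 to 3.37), 2.81 (1.67 to 4.44) and 1.55 (0.742 to 2.85) of the expected numbers. The next block, 264 to 296 kb away, was higher in WT ESCs, at 2.21 (1.37 to 3.38), and the block before, 184 to 216 kb away, in PATZ1 KO MNs, at 2.06 (1.18 to 3.35). The strongest pair of the window was chosen for its value in ESCs. It joined this stretch at 86608001 to 86616000 to the bin 86296001 to 86304000, left of the promoter and 312 kb away. It had 10, 12, 7 and 4 contacts in the order given, which were 5.95, 7.62, 7.03 and 3.99 of the expected numbers. All 4 libraries were above the expected number, and the intervals overlapped.

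Of 16 promoter, partner and strongest-pair bins of Esrrb, 2 held a CTCF core, beside 1 of 10 for Prdm14, 1 of 13 for Pou5f1 and 0 of 16 for Klf4. In all this was 4 of 55 bins, against the share of 3.75% given above. They are shown because 1 lies in the stretch around 248 kb, in the bin next to the foot of the strongest pair, and the other within the gene. Both are read from the minus strand, with the core in capitals.
Esrrb, 40 kb to the right, chr12:86402902-86402963, minus strand: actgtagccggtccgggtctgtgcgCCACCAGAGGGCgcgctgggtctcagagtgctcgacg
Esrrb, 256 kb to the right, chr12:86616486-86616547, minus strand: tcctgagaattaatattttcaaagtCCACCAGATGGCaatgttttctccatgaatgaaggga
The match in that stretch points to the left, toward Esrrb.

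Around Pou5f1, contact with the left side was sparse in every library before correction, at 0.384 to 0.415 of the expected number against 0.625 to 1.07 on the right. With coverage included the left stood at 1.71 to 2.41 and the right at 1.58 to 1.90, and the left was the higher in 3 of 4 libraries. No pair was listed with the block 104 to 136 kb to the left, which includes 1 of the bins without contact. The block 64 to 96 kb to the left held 3 contacts in each ESC library, and 8 (WT) and 7 (PATZ1 KO) in MNs, a log2 ratio of MNs over ESCs of 2.09 (0.033 to 4.64) in WT and 1.76 (-0.37 to 4.34) in PATZ1 KO. The bin 24 kb to the left, 35480001 to 35488000, had the highest value in ESCs, with 20 contacts in each library, 1.25 (0.766 to 1.94) in WT and 1.42 (0.869 to 2.20) in PATZ1 KO. In MNs it had 7 and 6, or 0.641 (0.258 to 1.32) and 0.571 (0.209 to 1.24). The MN values were lower in both genotypes, with overlapping intervals, in a bin chosen for its value in ESCs. With coverage included the values were 4.05 and 6.16 in ESCs and 1.94 and 2.29 in MNs. The bin 24 kb to the right, which holds Cchcr1 and Psors1c2, genes of the psoriasis susceptibility region, had 11 (WT) and 13 (PATZ1 KO) contacts in ESCs, and 13 and 7 in MNs. To the right, the block 24 to 56 kb away had 35 (WT) and 48 (PATZ1 KO) contacts in ESCs, and 44 and 36 in MNs. The log2 ratio of MNs over ESCs was 0.90 (0.23 to 1.58) in WT and 0.024 (-0.64 to 0.68) in PATZ1 KO.

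**Figure D3:**
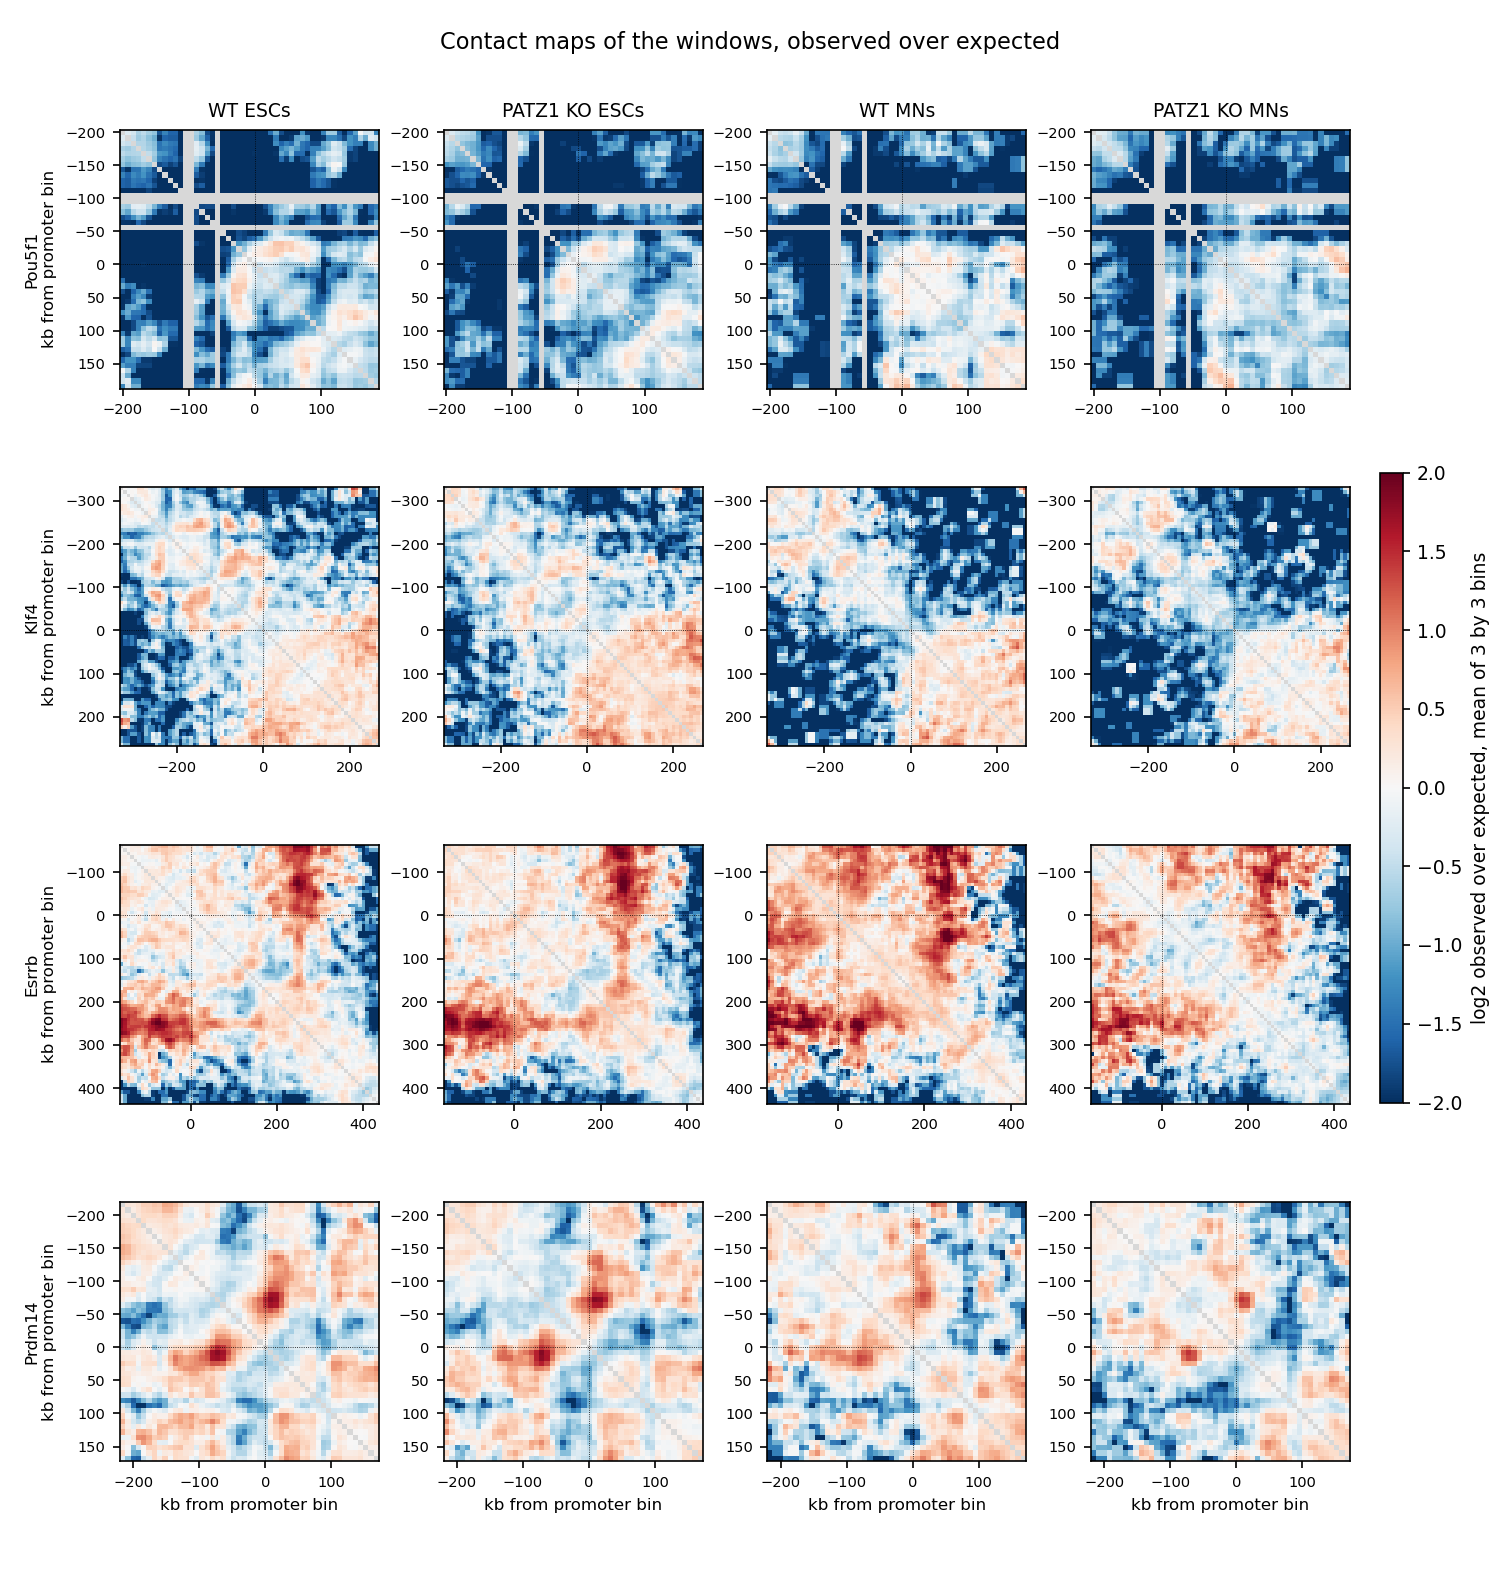
Contact maps of the windows in 4 libraries, as log2 of observed over expected contact (colour, mean of 3 by 3 bins, limited to -2 and 2) by distance of both bins from the promoter bin in kb; dotted lines mark the promoter bin and grey the diagonal and bins without contact. The quadrant that joins the left side of Klf4 to its right was lower in MNs, and the spot of Prdm14, 72 kb to the left against 8 and 16 kb to the right, was above the expected number in all 4 libraries.

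Loss of PATZ1 was compared next. In ESCs, promoter contact in PATZ1 KO over WT had a log2 ratio of 0.052 (-0.36 to 0.46) for Pou5f1, -0.15 (-0.45 to 0.14) for Klf4, -0.014 (-0.30 to 0.27) for Esrrb and -0.11 (-0.36 to 0.15) for Prdm14. All 4 intervals included 0 and the median of all promoters, -0.069. None of the 4 was past 1.5-fold, against 1.78% of promoters lower and 0.302% higher. The widest was that of Pou5f1, from -0.36 to 0.46. For each gene, differences too small for its own interval to leave out 0 were not detectable at this depth.

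In MNs the ratio was -0.32 (-0.77 to 0.13) for Pou5f1, 0.026 (-0.43 to 0.48) for Klf4, -0.38 (-0.68 to -0.07) for Esrrb and -0.053 (-0.40 to 0.29) for Prdm14. Again none of the 4 was past 1.5-fold, against 7.24% of promoters lower and 2.23% higher, and the median of all promoters was -0.18. Esrrb was the only member whose interval left out 0, but the interval held the median. At the first start site its difference lay on the right side, over the gene, with 116 (WT) and 71 (PATZ1 KO) contacts, a log2 ratio of -0.73 (-1.18 to -0.29), and was -0.0087 (-0.45 to 0.43) on the left. The other start sites of Esrrb gave -0.44 (-0.76 to -0.12) and -0.47 (-0.81 to -0.15). At the former the left side gave -0.54 (-0.97 to -0.11) and the right -0.32 (-0.80 to 0.17), so the difference did not keep to 1 side. With coverage included, the ratio at the first start site turned to 0.28. The values there then were 1.14 (WT) and 1.11 (PATZ1 KO) on the right, and 0.892 and 1.36 on the left. The other start sites then stood at 0.941 (WT) and 1.16 (PATZ1 KO), and at 0.961 and 1.18.

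Among the blocks of 40 kb, 2 of 40 had an interval below 0 in ESCs, 1 of 39 in MNs, and none lay above 0, with Esrrb counted from its first start site. In ESCs these were the block 64 to 96 kb to the left of Klf4 described above, at -1.24 (-2.20 to -0.35), and the block 24 to 56 kb to the right of Prdm14, at -0.85 (-1.68 to -0.058). The latter held 42 (WT) and 21 (PATZ1 KO) contacts in ESCs, against 24 and 23 in MNs. In MNs it was the block 24 to 56 kb to the right of Esrrb, at -0.65 (-1.29 to -0.028). Counted from the other start sites of Esrrb, 2 of 14 and 1 of 13 blocks lay below 0 in MNs, the lowest at -1.36 (-2.52 to -0.31). With this many intervals at the 95% level, some leave out 0 by counting error alone. The share of such blocks over all promoters is not given, so these counts are a description only.

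**Figure D4:**
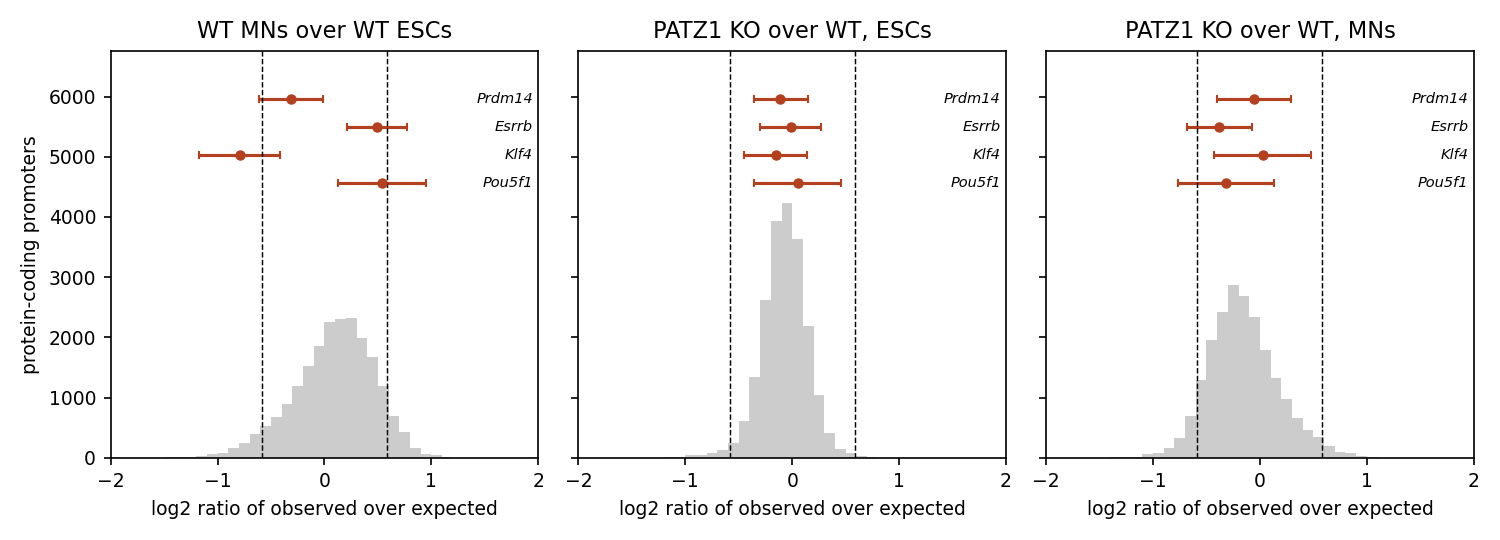
Number of protein-coding promoters (vertical axis) by log2 ratio of observed over expected contact (horizontal axis) in 3 comparisons, with values past -2 or 2 in the end classes; points above are the 4 genes with 95% counting intervals, and dashed lines mark 1.5-fold. Klf4 in WT MNs over WT ESCs, at -0.79, is the only point past a dashed line.

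All contacts inside a window, more than 1 bin apart, were compared as well. In ESCs the log2 ratio, PATZ1 KO over WT, stood at -0.066 (-0.14 to 0.012) for Pou5f1, 0.031 (-0.008 to 0.071) for Klf4, 0.064 (0.028 to 0.10) for Esrrb and -0.047 (-0.10 to 0.0015) for Prdm14. In MNs it was -0.21 (-0.30 to -0.12), -0.18 (-0.23 to -0.13), -0.35 (-0.40 to -0.31) and -0.18 (-0.24 to -0.12) in the same order. All 4 windows were thus lower in PATZ1 KO MNs than in WT. Tiles of the same size over the genome ranged from -0.44 to 0.48 (400 kb) and from -0.41 to 0.46 (600 kb) between their 5th and 95th percentiles in MNs, so none of the windows stood outside the spread of the genome. In ESCs the tiles ranged from -0.19 to 0.17 and from -0.17 to 0.16. The Esrrb window held 10019 contacts in WT MNs, 1.32 of the expected number, and 7983 in PATZ1 KO MNs, 1.03. The median coverage of its bins went from 1.21 to 0.958 between these libraries, and the part of coverage in the result was not tested.

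Insulation was read as the log2 of the mean count in a square of 240 kb spanning a bin over the chromosome's mean, so that a low score marks a bin across which few contacts pass. At the Klf4 promoter the score was -0.45 in WT and -0.39 in PATZ1 KO ESCs, and -1.03 in WT and -1.15 in PATZ1 KO MNs. Both MN libraries were lower than both ESC libraries. In ESCs the minima lay 248 and 56 kb to the left, and the deeper of them, in the gene model Gm12512, scored -0.87 in WT and -0.88 in PATZ1 KO ESCs, against -0.14 and -0.21 in MNs. In MNs the minimum lay 32 kb to the left, at -1.13 and -1.29, against -0.38 and -0.43 in ESCs. The lowest point of the Klf4 window was thus next to the gene in MNs and far to its left in ESCs.

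The Esrrb window had 1 minimum, the same bin in both cell states, 320 kb to the right of the promoter in Vash1, a gene for a regulator of blood vessel growth. It scored -0.68, -0.75, -0.72 and -0.93 in WT ESCs, PATZ1 KO ESCs, WT MNs and PATZ1 KO MNs. At the Esrrb promoter the scores were 0.39, 0.44, 1.02 and 0.74. The Prdm14 window had no minimum below -0.2 in ESCs and 1 in MNs, 16 kb to the right in Ncoa2, a gene for a nuclear receptor coactivator. It scored 0.013 (WT) and -0.056 (PATZ1 KO) in ESCs and -0.26 (WT) and -0.54 (PATZ1 KO) in MNs. For Pou5f1 the minimum lay 88 kb to the left in both states, between -2.13 and -2.55, beside the bins without contact. Depth of that minimum cannot be told apart from the missing coverage.

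**Figure D5:**
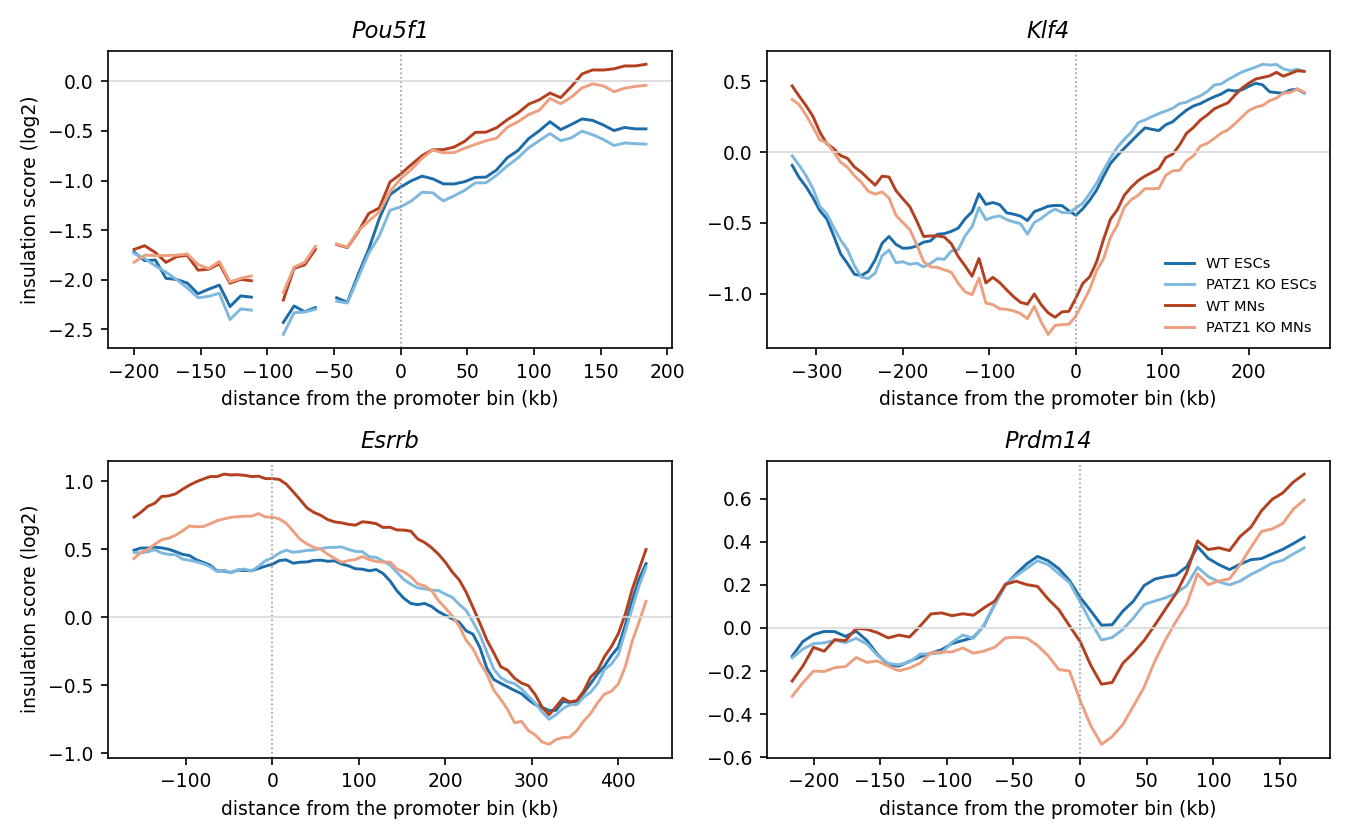
Insulation score (vertical axis, log2) by distance from the promoter bin in kb, for 4 windows and 4 libraries; the dotted line marks the promoter bin and gaps are bins without contact. At the Klf4 promoter both MN lines lay below both ESC lines, and around 320 kb to the right of Esrrb all 4 lines lay lowest.

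Other genes of the same network were set beside the members. Of 18 pluripotency genes, 2 were lower in WT MNs than in WT ESCs by over 1.5-fold and 0 higher, beside 5.43% and 7.50% of all promoters. The median log2 ratio was 0.11 beside 0.12 over all promoters. The 2 were Sox2, the partner of OCT4, at -0.96 (-1.29 to -0.63), and Klf5, a relative of Klf4, at -0.60 (-0.87 to -0.32). Of the 18 ratios, 7 were below 0, against 36.9% of all promoters. Of 15 motor neuron genes, 0 were lower and 1 higher, beside the same shares, and 3 were below 0 beside 36.9%, with a median of 0.10. Chat and Slc18a3 share a promoter bin, so the 15 genes are 14 measurements. It was Lhx3, a LIM homeodomain factor of motor neuron specification, at 0.67 (0.35 to 0.99). Between the PATZ1 KO libraries, 2 of 18 were lower in MNs by over 1.5-fold, Sox2 and Tet2, which encodes an enzyme of DNA demethylation, and 1 was higher, Lin28a, beside 3.46% and 2.91% of all promoters. Of the 18 ratios, 10 were below 0 beside 47.9% of all promoters, and the median was -0.14 beside 0.015. Of the motor neuron genes 0 were past 1.5-fold in either direction there, 7 were below 0 and the median was 0.0069. Klf5 stood at -0.48 and Lhx3 at 0.15 (-0.22 to 0.51) there, both short of 1.5-fold.

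Between genotypes, 1 of the 18 pluripotency genes was lower in PATZ1 KO ESCs by over 1.5-fold, Lin28a, which encodes an RNA-binding protein that blocks let-7 processing, beside 1.78% of all promoters. None was higher, 17 of the 18 ratios were below 0, beside 63.8% of all promoters, and the median was -0.23 beside -0.069 over all promoters. In MNs none of the 18 was past 1.5-fold, beside 7.24% lower and 2.23% higher of all promoters, 17 were below 0 beside 71.4%, and the median was -0.24 beside -0.18. Of the motor neuron genes, 0 of 15 were past 1.5-fold in ESCs, beside 1.78% lower and 0.302% higher of all promoters. There 11 were below 0 beside 63.8%, with a median of -0.031 beside -0.069. In MNs 1 was lower, Pou3f1, a POU domain factor of motor neurons, beside 7.24% of all promoters. All 15 ratios, from 14 bins, were below 0, beside 71.4% of all promoters, and the median was -0.26. The list ratios were not corrected for coverage, which in MNs took every member above 0, as given below.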

How the data were processed

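Micro-C libraries of WT and PATZ1 KO ESCs and MNs were grouped by their labels, with 1 library in each of 4 groups. Alignment and contact matrices were made by the kit's maker, Dovetail, and the aligner version is not given in the sources used here. For each pair of 8 kb bins the deposited lists give raw contact counts. They also give adjusted interaction frequencies, a signal made by the authors with HiCcompare, which normalized WT and PATZ1 KO jointly, separately in ESCs and MNs, so MNs were compared with ESCs only within-library, through observed over expected counts. Further columns hold the authors' differences, scores and p-values, which were not used. A pair is listed where both libraries of a cell state had at least 1 contact, so totals are not the full depth and an unlisted pair is not a count of 0. Library 1 was read as WT and library 2 as PATZ1 KO.

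The build is mm10 per the labels (the submitters' processing notes), and the bins of all 20 chromosomes ended within GRCm38, whose GENCODE annotation and RefSeq promoters were used. Coordinates are 1-based.

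Expected contact was the mean at the same distance over all possible pairs of bins of the chromosome that had any contact, with unlisted pairs counted as 0. Promoter contacts covered 24 to 160 kb on both sides. Called meant past 1.5-fold, over promoters at least 160 kb from a chromosome end. Intervals were Poisson (levels) or Clopper-Pearson (ratios) at 95%. Partner bins were the top 3 by mean over both libraries with at least 20 contacts, and insulation minima were local minima under -0.2 within 40 kb. Motifs were searched on both strands. Genes named were the 4 members and genes in partner bins or minima. Gene list members past 1.5-fold were named after their values were seen. The members, windows and gene lists were chosen with earlier results of these data known. Blocks of 40 kb, strongest pairs, ratios between the PATZ1 KO libraries and thinned libraries were added after seeing the data. The promoter ratio between libraries that share a list was tested on simulated data, and the other measures were not. Python 3.11.15, numpy 2.4.6 and scipy 1.17.1 were used.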

Additional observations from a re-analysis of the deposited data

Results flagged for a closer look

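The contacts inside the Esrrb window differed between cell states in the direction of PATZ1 KO against WT. The log2 ratio, PATZ1 KO over WT, was 0.064 for ESCs and, for MNs, -0.35, and each counting interval lay on its own side of 0. With 1 library in each group the difference between these ratios was not tested. The ESC value lay well inside the range of tiles of that size, -0.17 to 0.16, and the MN value inside -0.41 to 0.46.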

How the results depend on the processing

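No paired analysis was possible because each group held 1 library, so no replicate number pairs libraries across groups. Of 111 alternatives to a value with a counting interval, 99 stayed within it and 12 did not. The sign of a log2 ratio turned in 10, all of PATZ1 KO over WT, of which only Esrrb in MNs had an interval that left out 0. Coverage of both bins in the expected contact took promoter contact in WT MNs over WT ESCs to 0.044 for Pou5f1 and 0.086 for Esrrb, and PATZ1 KO over WT in MNs from -0.32 to 0.18 for Pou5f1, from 0.026 to 0.27 for Klf4, from -0.053 to 0.15 for Prdm14 and from -0.38 to 0.28 for Esrrb, so that all 4 were above 0. It raised the strongest Pou5f1 partner from 1.34 to 5.11 in ESCs and from 0.928 to 1.96 in MNs. Klf4 in WT MNs over WT ESCs stayed below 0 under every alternative run, between -0.98 and -0.56, the latter short of 1.5-fold, and was -0.72 with the ESC libraries thinned to the MN totals. A minimum of 10 contacts in place of 20 raised the strongest partner of Esrrb to 2.57 in ESCs and 5.84 in MNs and that of Prdm14 to 2.43 in MNs. It also raised that of Pou5f1 in MNs from 0.928 to 1.41 and that of Klf4 in ESCs from 1.89 to 2.58. With pairs within 1 bin included, the window ratio of PATZ1 KO over WT turned from -0.066 to 0.08 for Pou5f1 and from -0.047 to 0.036 for Prdm14 in ESCs, and was -0.31 for Esrrb in MNs. A square of 120 kb gave 7 insulation minima in ESCs in place of 4, and 4 in MNs as before. A minimum of 40 contacts left no partner for some members. The causes were not tested. Each group was 1 library, the columns of WT and PATZ1 KO are not named, single pairs held few contacts, and pairs seen in 1 library alone were left out.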
